A study of Mus musculus with 6 samples.

Results

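The genes described here are inorganic ion carriers of the solute carrier (Slc) superfamily, membrane proteins that move phosphate, sodium, protons, bicarbonate, chloride, sulfate and calcium. They were chosen by symbol: every gene in the array's annotation whose symbol starts with Slc4a, Slc8a, Slc9a, Slc12a, Slc20a, Slc24a, Slc26a or Slc34a, without Slc4a1, Slc4a9, Slc12a1, Slc12a3 and Slc26a4. This gave 44 of the 18193 genes measured, in 8 families. Of these 41 are carriers, and 3 share only the name: Slc9a3r1 and Slc9a3r2 encode the scaffold proteins NHERF1 and NHERF2, and Slc4a1ap encodes kanadaptin. The tissue was renal epithelium dissected by hand from mouse kidney, as 3 samples of cystic tissue from Fh1 knockout mice and 3 samples from wild-type littermates without disease, matched for sex, with 1 Affymetrix array for each sample. Fh1 encodes fumarate hydratase of the tricarboxylic acid cycle. The labels used here give neither age, strain nor the means of deletion, and do not state whether the samples came from different animals. The p-values therefore cover only sample-to-sample spread, which may be technical.

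In the kidney these carriers reclaim ions that the glomerulus filters. The sodium gradient set by the sodium pump drives phosphate uptake by the Slc34 and Slc20 cotransporters and proton secretion by the Slc9 exchangers across the apical membrane of the proximal tubule, and Slc4 carriers return the bicarbonate so formed to the blood. Slc26 exchangers trade chloride for sulfate, oxalate or bicarbonate, Slc12 cotransporters couple chloride to sodium or potassium, and Slc8 and Slc24 exchangers extrude calcium. Many members sit in 1 nephron segment, while others serve pH, volume or organelle balance in most cells.

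To show the regions ahead of carriers that moved in opposite directions, the 250 bases before the annotated start are printed for 5 genes, 2 that rose and 3 that fell, 5′ to 3′ on the strand of the gene, from RefSeq (GRCm38.p6). They are Slc34a2 (chr5:53049103-53049352, plus strand), the first of 2 starts of Slc20a1 (chr2:129198523-129198772, plus), Slc34a3 (chr2:25234235-25234484, minus), Slc34a1 (chr13:55399398-55399647, plus) and Slc9a3 (chr13:74121163-74121412, plus). Capitals mark matches, on either strand, to GTTAAT (a half-site of the hepatocyte factor HNF1) or ACGTG (the core of the hypoxia response element).
Slc34a2: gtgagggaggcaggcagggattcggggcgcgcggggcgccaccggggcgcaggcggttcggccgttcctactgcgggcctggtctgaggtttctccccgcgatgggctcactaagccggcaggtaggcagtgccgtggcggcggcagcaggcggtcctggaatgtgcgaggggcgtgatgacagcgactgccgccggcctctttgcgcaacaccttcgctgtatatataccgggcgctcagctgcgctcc
Slc20a1: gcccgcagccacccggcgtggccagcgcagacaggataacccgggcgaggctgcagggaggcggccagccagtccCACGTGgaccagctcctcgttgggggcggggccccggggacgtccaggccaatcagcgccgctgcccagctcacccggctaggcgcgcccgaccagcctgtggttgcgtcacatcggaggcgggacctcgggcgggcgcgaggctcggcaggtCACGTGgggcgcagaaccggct
Slc34a3: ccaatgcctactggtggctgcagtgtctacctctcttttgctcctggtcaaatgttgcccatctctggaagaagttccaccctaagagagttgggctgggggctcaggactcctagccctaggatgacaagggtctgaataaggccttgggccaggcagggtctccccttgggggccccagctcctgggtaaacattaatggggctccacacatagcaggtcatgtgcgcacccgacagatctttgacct
Slc34a1: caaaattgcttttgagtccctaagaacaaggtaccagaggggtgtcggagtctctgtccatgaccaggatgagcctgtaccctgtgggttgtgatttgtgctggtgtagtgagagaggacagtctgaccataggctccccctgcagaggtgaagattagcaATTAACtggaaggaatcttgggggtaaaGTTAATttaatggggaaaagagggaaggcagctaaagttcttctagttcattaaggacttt
Slc9a3: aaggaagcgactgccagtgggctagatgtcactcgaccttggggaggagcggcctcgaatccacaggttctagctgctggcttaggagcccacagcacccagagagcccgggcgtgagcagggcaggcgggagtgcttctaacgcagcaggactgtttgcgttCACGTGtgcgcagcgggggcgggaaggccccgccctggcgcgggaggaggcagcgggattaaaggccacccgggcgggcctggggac
Slc34a1 had 2 HNF1 half-sites, at 89 and 61 bases before the start, Slc20a1 had 2 hypoxia cores, at 175 and 22 bases, and Slc9a3 had 1, at 87 bases. These 3 cores all lie in CACGTG, which reads the same on both strands and is also the E-box of other factors. Of the 44 genes, 36 had a window in the table, 48 windows in all, and the same length before the start was searched in all 32851 windows. ACGTG was in 14.6% of the windows of these genes and in 16.6% of all windows, and GTTAAT in 6.2% and 6.4%. The antioxidant response element TGACNNNGC was in 8.3% and 10.2%, and the AP-1 site TGANTCA in 10.4% and 6.7%; neither was in a printed window. A match describes letters only, and whether any factor binds there was not tested.

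The arrays gave expression values on a log2 scale, after RMA (robust multi-array average) by the authors, so a difference of 1 is a 2-fold change. Fh1 read 11.54, 11.60 and 11.61 in knockout samples 1 to 3, against 12.41, 12.34 and 12.22 in wild-type samples 1 to 3. A gene was called when its adjusted p from limma over all 18193 genes was under 0.05. Cell type markers moved in the same samples. Of 19 proximal tubule markers 17 were called lower and none higher, with summed levels (log2 of the sum) of 16.21 to 16.32 in knockout and 17.30 to 17.34 in wild-type samples. Of 11 markers of the thick limb and distal convoluted tubule 10 were called lower and none higher (14.63 to 15.05 in knockout, 15.90 to 16.11 in wild-type samples), and of 14 collecting duct markers 6 were lower and 1 higher (12.76 to 13.14 and 13.33 to 13.58). The 6 lower ones included Slc4a1, Slc4a9 and Slc26a4, carriers left out by the rule. Aqp2, Avpr2, Scnn1b, Scnn1g, Hsd11b2, Foxi1 and Atp6v0d2 were not called. Of 19 immune markers 17 were higher and none lower (13.78 to 14.17 in knockout, 12.52 to 12.86 in wild-type samples), of 14 matrix markers 11 higher and none lower (13.94 to 14.66 and 12.58 to 12.92), and all 11 injured tubule markers were higher (15.56 to 15.60 and 12.67 to 13.26). Endothelial markers were lower in 8 of 11 and higher in 1 (11.91 to 12.20 and 12.53 to 12.80), podocyte markers lower in 5 of 7 and erythrocyte markers lower in 4 of 5, with none higher (10.80 to 11.01 and 11.74 to 11.93, and 7.92 to 8.14 and 9.45 to 10.06). Slc4a1 was counted in both the erythrocyte and the collecting duct list. The globin genes Hba-a1 and Hbb-b2 were dim (3.72 to 4.42 and 4.81 to 5.53). The call of Hba-a1 ended without knockout 2 or knockout 3, and that of Hbb-b2 without knockout 1 or knockout 2. RMA gives no zero and no detection call, so no marker can be called absent. The part of these cell mixtures in the carrier results was not tested, and fewer cells of a type cannot be told apart from less RNA per cell.

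More carriers fell than rose, and the largest changes were in phosphate and sodium/proton carriers. Of the 44 genes, 10 were called higher in the knockout and 19 lower, and 15 were not called. Among the 41 carriers alone, 10 were higher (24.4%) and 17 lower (41.5%). Called genes were 65.9% of the 44 and 49.2% of all genes; higher genes were 22.7% against 21.6% of all genes, and lower genes 43.2% against 27.7%. A change of at least 2-fold was called for 5 genes that rose (11.4%, against 5.44% of all genes) and 7 that fell (15.9%, against 3.39%). All 3 knockout values lay above all 3 wild-type values for 11 genes (25.0%, against 25.7% of all genes) and below them for 22 (50%, against 37.1%), and the groups overlapped for 11. The median log2 fold change of the 44 genes was -0.28, beside -0.11 for all genes. Their mean signal was below the median of all genes for 24 of the 44, where RMA compresses folds, and in a fit of the genes at or above that median alone 17 of the other 20 were called, beside 58.0% of all 9097 genes in that fit. Of the 29 calls, 24 held whichever array was left out.

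**Figure D1:**
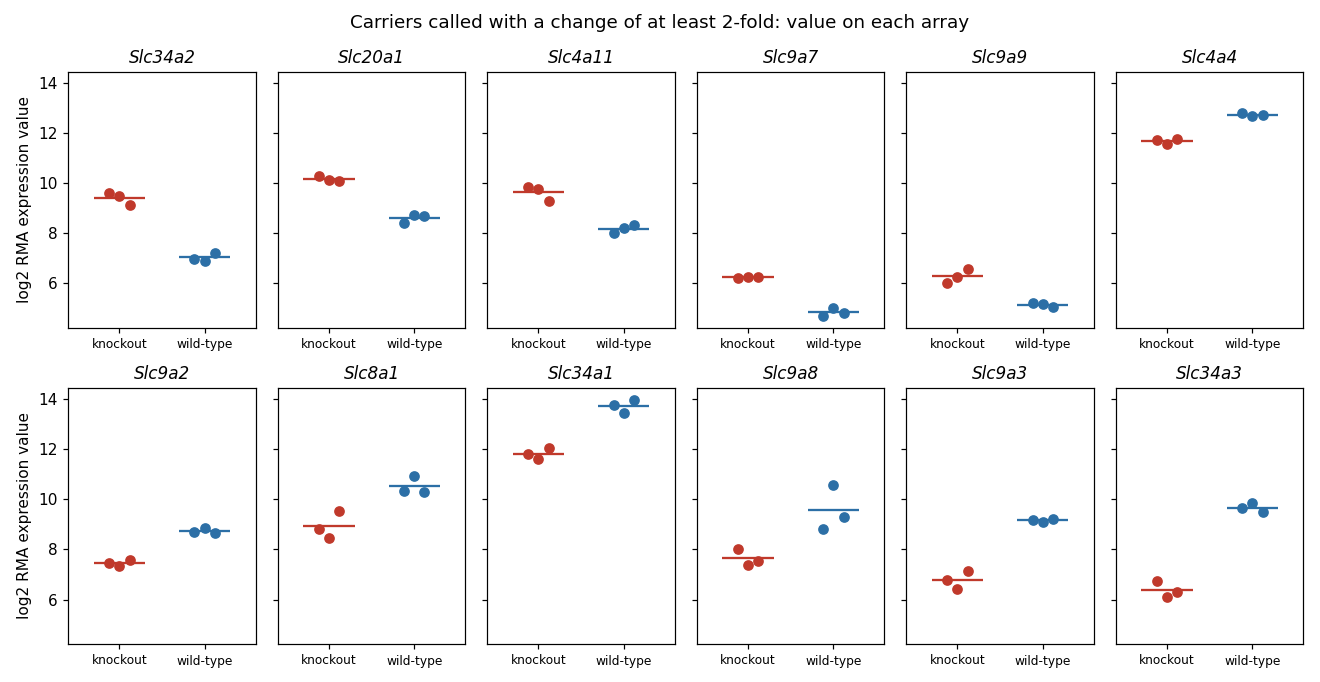
Log2 RMA expression value (vertical axis) on each array for the 12 carriers called with a change of at least 2-fold, from the largest rise to the largest fall; points are samples 1 to 3 from left to right, knockout left of wild-type, and bars are group means. The groups are separate in each panel, and Slc9a8 has the widest wild-type spread.

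The phosphate cotransporters split within 1 family. Slc34a2, the type II cotransporter NaPi-IIb best known from lung and intestine, rose, while both type II cotransporters of the proximal tubule brush border fell. Slc34a2 read 9.60, 9.47 and 9.12 in knockout samples, against 6.98, 6.91 and 7.22 in wild-type samples. The lowest knockout value stood well above the highest wild-type value. The log2 fold change was 2.36 (SE 0.14, adjusted p = 3.31e-05), 5.14-fold higher, at rank 103 from the highest log2 fold change of all 18193 genes.

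Slc34a3, the cotransporter NaPi-IIc of the deeper nephrons, read 6.75, 6.10 and 6.32 in knockout samples, against 9.65, 9.86 and 9.48 in wild-type samples. It fell 9.66-fold (log2 fold change -3.27, SE 0.17, adjusted p = 2.37e-05), at rank 12 from the lowest log2 fold change of all genes. Slc34a1, NaPi-IIa, which carries most filtered phosphate in the mouse, read 11.81, 11.59 and 12.04 in knockout samples, against 13.75, 13.42 and 13.96 in wild-type samples. Its groups did not overlap, and it fell 3.73-fold (log2 fold change -1.90, SE 0.16, adjusted p = 0.000126). On both sides its level remained in the top part of the arrays, with a mean signal above 99.0% of genes. These falls stood beside the lower proximal tubule markers, whose median log2 fold change was -1.39.

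The type III cotransporters Slc20a1 (PiT-1) and Slc20a2 (PiT-2), found in most tissues and known as receptors of gammaretroviruses, both rose. Slc20a1 read 10.26, 10.13 and 10.06 in knockout samples, against 8.41, 8.72 and 8.67 in wild-type samples. That was 2.92-fold higher (log2 fold change 1.55, SE 0.11, adjusted p = 5.47e-05), with no overlap. Slc20a2 read 9.54, 9.51 and 9.51 in knockout samples, against 9.0, 9.20 and 9.08 in wild-type samples, a smaller rise of 1.34-fold (log2 fold change 0.42, SE 0.08, adjusted p = 0.00508). The call of Slc20a2 ended when its 2 probe sets were averaged (log2 fold change 0.16, adjusted p = 0.0893), since the other probe set was not called.

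Among sodium/proton exchangers, Slc9a3, Slc9a8 and Slc9a2 fell by more than 2-fold, and the organelle exchangers Slc9a7 and Slc9a9 rose by more than 2-fold. Of 9 genes in the Slc9a group, 2 were higher, 6 lower and 1 not called (22.2% higher and 66.7% lower, beside 21.6% and 27.7% of all genes). The 6 lower genes include the scaffold genes Slc9a3r1 and Slc9a3r2, which are not exchangers. Slc9a3, NHE3, the main apical exchanger of the proximal tubule, read 6.77, 6.41 and 7.14 in knockout samples, against 9.18, 9.10 and 9.20 in wild-type samples. It fell 5.23-fold (log2 fold change -2.39, SE 0.17, adjusted p = 5.67e-05), and the knockout samples spread more widely (SD 0.36) than the wild-type samples (SD 0.05). Slc9a8, NHE8, an exchanger of the Golgi and of the proximal brush border, read 8.03, 7.38 and 7.53 in knockout samples, against 8.82, 10.57 and 9.30 in wild-type samples. The groups did not overlap, but wild-type 2 stood above the other wild-type samples. The log2 fold change was -1.92 (SE 0.41, adjusted p = 0.00721), and -1.42 without wild-type 2. Slc9a2, NHE2, an apical exchanger of the distal nephron, read 7.47, 7.33 and 7.57 in knockout samples, against 8.68, 8.86 and 8.67 in wild-type samples, a fall of 2.43-fold (log2 fold change -1.28, SE 0.10, adjusted p = 7.85e-05).

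The exchangers that rose were dim. Slc9a7, NHE7 of the trans-Golgi network, read 6.23, 6.25 and 6.25 in knockout samples, against 4.70, 5.01 and 4.82 in wild-type samples. It was 2.64-fold higher (log2 fold change 1.40, SE 0.10, adjusted p = 5.17e-05). Slc9a9, NHE9 of recycling endosomes, read 6.02, 6.26 and 6.59 in knockout samples, against 5.21, 5.18 and 5.06 in wild-type samples. It was 2.21-fold higher (log2 fold change 1.14, SE 0.14, adjusted p = 0.000653), without overlap. Wild-type values of both lay near the lower quartile of the arrays (4.72 to 4.77 in wild-type samples), so the size of these folds is uncertain. The rise of Slc9a9 rests on its brightest probe set: 3 dimmer ones were not called, and their mean with it gave 0.21 (adjusted p = 0.0692). Slc9a5, NHE5 of neurons, had a log2 fold change of -0.36 (SE 0.08, adjusted p = 0.00956) at a dim signal, and Slc9a4, NHE4 of the thick limb, one of -0.10 (95% interval -0.32 to 0.12, adjusted p = 0.376).

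Both scaffold genes fell by less than 2-fold. NHERF1 tethers NHE3 and NaPi-IIa to the brush border, and Slc9a3r1 read 11.67, 11.64 and 11.68 in knockout samples, against 12.25, 12.13 and 12.50 in wild-type samples. It fell 1.55-fold (log2 fold change -0.63, SE 0.11, adjusted p = 0.00254), and each of its 3 probe sets was called lower. Slc9a3r2 fell 1.42-fold (log2 fold change -0.50, SE 0.11, adjusted p = 0.00744), and all 6 of its probe sets were called lower.

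Of the 8 genes of the bicarbonate family kept by the rule, 2 were higher, 2 lower and 4 not called. The shares of these 8, 25.0% higher and 25.0% lower, were near those of all genes (21.6% and 27.7%). Slc4a1 and Slc4a9, left out by the rule, were both called lower (log2 fold change -2.11 and -1.39, adjusted p = 0.00021 and 2.38e-05). Slc4a4, NBCe1, the basolateral carrier through which proximal tubule cells return bicarbonate, read 11.73, 11.57 and 11.74 in knockout samples, against 12.80, 12.68 and 12.70 in wild-type samples. Replicates lay close together, and the fall was 2.07-fold (log2 fold change -1.05, SE 0.09, adjusted p = 9.84e-05). Slc4a11, a relative that passes protons, ammonia or water and is known from the corneal endothelium, read 9.84, 9.75 and 9.29 in knockout samples, against 7.99, 8.21 and 8.32 in wild-type samples. It rose 2.75-fold (log2 fold change 1.46, SE 0.16, adjusted p = 0.00033), and both of its probe sets were called higher. Slc4a2, AE2, the anion exchanger of most epithelia, read 9.02, 9.05 and 9.02 in knockout samples, against 8.53, 8.68 and 8.56 in wild-type samples, a rise of 1.36-fold (log2 fold change 0.44, SE 0.08, adjusted p = 0.00339).

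The remaining genes kept in that family changed little or were dim, and Slc4a1ap among them is not a carrier. Slc4a5, NBCe2, was called lower (log2 fold change -0.42, SE 0.08, adjusted p = 0.00526) at 3.76 to 3.77 in knockout and 4.09 to 4.30 in wild-type samples, below the lower quartile of every array. Slc4a8, a sodium-driven chloride/bicarbonate exchanger, had a log2 fold change of -0.25 (adjusted p = 0.0511) and Slc4a10, of neurons, one of -0.27 (adjusted p = 0.0807). Both were called lower after centring (-0.33 and -0.35, adjusted p = 0.0232 and 0.0398) or without wild-type 2 (-0.31 and -0.36, adjusted p = 0.0305 and 0.0404), and Slc4a8 also with quantile normalization (-0.34, adjusted p = 0.0182). Slc4a3, AE3 of heart and brain, had 0.02 (95% interval -0.27 to 0.31) and Slc4a1ap -0.03 (95% interval -0.24 to 0.18). The sign of Slc4a3 turned with centring or quantile normalization. With 1 array left out, Slc4a3 ranged from -0.07 to 0.13 and Slc4a1ap from -0.08 to 0.03.

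**Figure D2:**
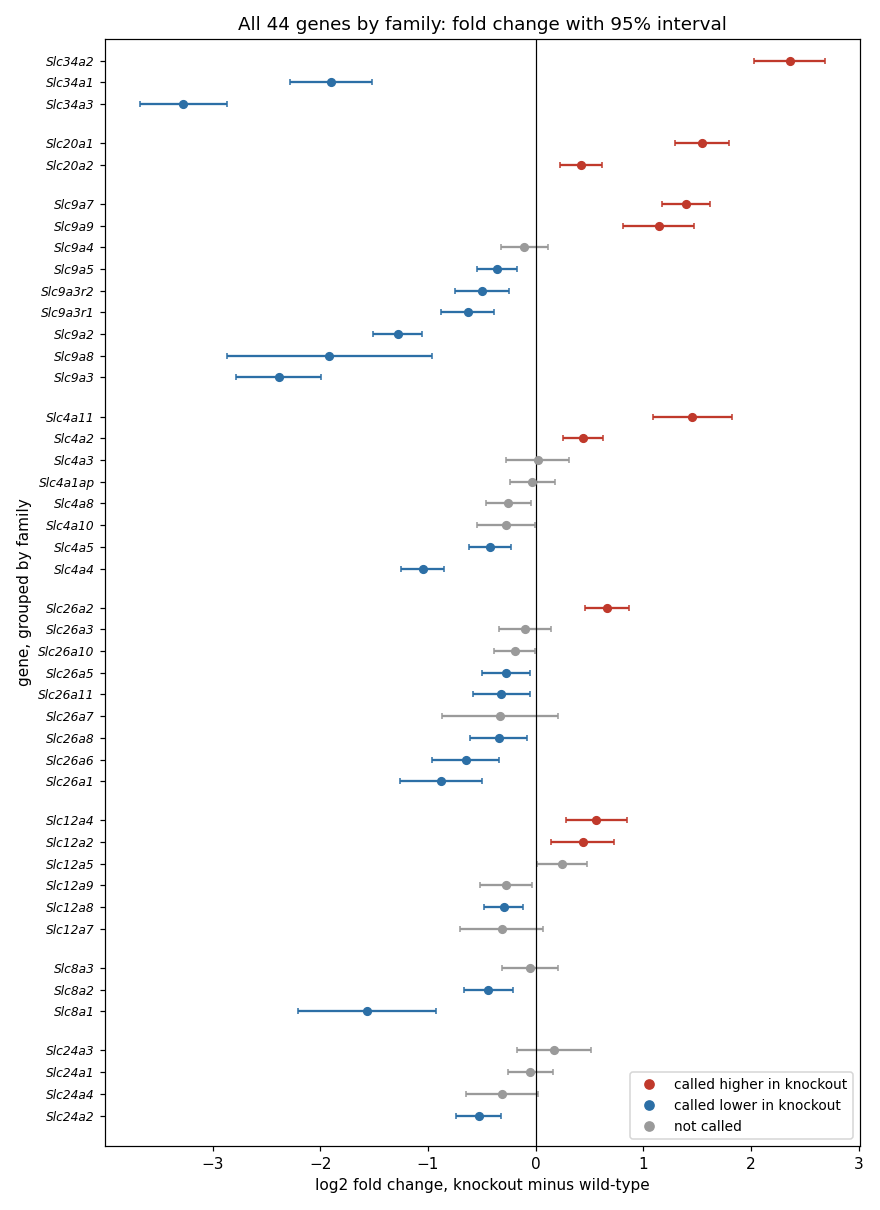
Log2 fold change, knockout minus wild-type, of all 44 genes grouped by family (horizontal axis), with 95% intervals from the limma fit; red is called higher in the knockout, blue called lower, grey not called. Slc34a2 lies farthest to the right and Slc34a3 farthest to the left, and both belong to 1 family.

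Slc26a1 and Slc26a6, anion exchangers of the proximal tubule, fell, and the broadly expressed sulfate carrier Slc26a2 rose. Slc26a1, the basolateral sulfate and oxalate exchanger Sat-1, read 7.18, 7.21 and 7.65 in knockout samples, against 8.33, 8.40 and 7.95 in wild-type samples. It fell 1.84-fold (log2 fold change -0.88, SE 0.16, adjusted p = 0.00412), without overlap; averaging its probe sets ended the call (-0.68, adjusted p = 0.0591). Slc26a6, the apical chloride/oxalate exchanger, read 6.46, 6.70 and 6.57 in knockout samples, against 6.98, 7.47 and 7.24 in wild-type samples, a fall of 1.57-fold (log2 fold change -0.65, SE 0.13, adjusted p = 0.00639). Slc26a2, the sulfate carrier needed for cartilage proteoglycans, read 8.45, 8.47 and 8.50 in knockout samples, against 7.79, 7.93 and 7.71 in wild-type samples. It rose 1.58-fold (log2 fold change 0.66, SE 0.09, adjusted p = 0.000789), and all 3 of its probe sets were called higher.

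Of the 9 genes kept in that family 1 was higher, 5 were lower and 3 were not called (11.1% higher and 55.6% lower, beside 21.6% and 27.7% of all genes). Slc26a4, left out by the rule, was also called lower (log2 fold change -2.45, adjusted p = 2.38e-05). Among the 9, only the calls of Slc26a1, Slc26a6 and Slc26a2 held when any 1 array was left out. Slc26a11, Slc26a8 and Slc26a5 (prestin of cochlear hair cells), all dimmer than the median gene, had log2 fold changes of -0.32, -0.34 and -0.27 with adjusted p = 0.0486, 0.0376 and 0.0437. Leaving out knockout 1, knockout 3 or wild-type 3 ended each of these calls (log2 fold changes -0.31 to -0.21 over the 3 genes), and so did leaving out wild-type 2 for Slc26a11 and Slc26a8, wild-type 1 for Slc26a8 and Slc26a5, and knockout 2 for Slc26a5. Slc26a7, an exchanger of acid-secreting intercalated cells, read 5.62, 5.95 and 6.05 in knockout samples, against 6.05, 6.75 and 5.82 in wild-type samples. The groups overlapped (log2 fold change -0.33, 95% interval -0.87 to 0.21, adjusted p = 0.262), and wild-type 2 was the highest; without it the log2 fold change was -0.06. Averaging its probe sets gave a call (log2 fold change -0.49, adjusted p = 0.0061). Slc26a10 and Slc26a3, the chloride exchanger of colon, had log2 fold changes of -0.20 (adjusted p = 0.0852, and -0.27 with 0.0343 after centring) and -0.10 (adjusted p = 0.445).

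The cation-chloride cotransporters kept by the rule shifted by less than 2-fold. Of these 6 genes, 2 were higher, 1 lower and 3 not called (33.3% higher and 16.7% lower, beside 21.6% and 27.7% of all genes). Slc12a1 and Slc12a3, left out by the rule, were both called lower (log2 fold change -1.20 and -1.90, adjusted p = 0.0006 and 0.000452). Slc12a4, KCC1, the potassium-chloride cotransporter of most cells, read 7.60, 7.47 and 7.33 in knockout samples, against 6.71, 6.90 and 7.10 in wild-type samples. It was 1.48-fold higher (log2 fold change 0.56, SE 0.12, adjusted p = 0.00792). Slc12a2, NKCC1, the cotransporter that loads chloride into secretory cells, read 9.57, 9.60 and 9.66 in knockout samples, against 9.38, 9.25 and 8.90 in wild-type samples. The groups were close but did not overlap (log2 fold change 0.44, SE 0.13, adjusted p = 0.0243), and the call ended without any 1 of the 3 knockout samples (log2 fold change 0.41 to 0.45, adjusted p = 0.0601 to 0.0753) or with its probe sets averaged (0.30, adjusted p = 0.0606).

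Slc12a7, KCC4, of basolateral membranes in the nephron, read 9.89, 9.92 and 9.97 in knockout samples, against 10.03, 10.04 and 10.65 in wild-type samples. Wild-type 3 stood apart, and the gene was not called (log2 fold change -0.31, 95% interval -0.70 to 0.07, adjusted p = 0.147). Without wild-type 3 the log2 fold change was -0.11. Its dimmer probe set had a log2 fold change of -0.83 and was called lower. Slc12a8 was called lower at a dim signal (log2 fold change -0.30, adjusted p = 0.0153), a call that ended without knockout 2 or knockout 3 (log2 fold change -0.29 each, adjusted p = 0.0552 and 0.0540) or with quantile normalization (-0.19, adjusted p = 0.0947). Slc12a5, KCC2 of neurons, had a log2 fold change of 0.24 (adjusted p = 0.073), while its dimmer probe set was called lower (-0.35). Slc12a9 had a log2 fold change of -0.28 (adjusted p = 0.0583), and was called lower after centring (-0.35, adjusted p = 0.0277), with quantile normalization (-0.41, adjusted p = 0.0198) or without wild-type 2 (-0.36, adjusted p = 0.024).

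Of 3 Slc8a genes 2 were called lower, and of 4 Slc24a genes 1, with none higher, beside 27.7% lower and 21.6% higher of all genes. The calcium pump gene Atp2b1, from the lists below, was called higher (log2 fold change 0.35, adjusted p = 0.0293). That call ended without any 1 of the knockout samples or without wild-type 1. The pump genes Atp2b2 and Atp2a2 of the same list were called lower (log2 fold change -0.64 and -0.35, adjusted p = 0.0017 and 0.00729), and Atp2b4 was not called. Slc8a1, the sodium/calcium exchanger NCX1, which carries calcium out of distal convoluted and connecting tubule cells, read 8.83, 8.47 and 9.52 in knockout samples, against 10.33, 10.91 and 10.29 in wild-type samples. It fell 2.96-fold (log2 fold change -1.57, SE 0.28, adjusted p = 0.00311), with knockout 3 the nearest to the wild-type samples. Its dimmer probe sets changed less. Those at -0.95 and -0.79 were called lower, and the one at -0.76 overlapped between groups and was not called (adjusted p = 0.0764 over all probe sets). Markers of the thick limb and distal convoluted tubule had a median log2 fold change of -1.20 in these samples. Slc8a2, NCX2 of brain, had a log2 fold change of -0.44 (adjusted p = 0.00903), and Slc8a3, NCX3, one of -0.05 (95% interval -0.31 to 0.21). The sign of Slc8a3 turned with quantile normalization, and its log2 fold change ranged from -0.14 to 0.04 with 1 array left out. Of the 4 potassium-dependent exchangers Slc24a2, NCKX2, was called lower (log2 fold change -0.53, SE 0.09, adjusted p = 0.00267). Slc24a1 of photoreceptors, Slc24a3 and Slc24a4 had -0.05, 0.17 and -0.31 (adjusted p = 0.664, 0.343 and 0.102). Slc24a3 was called higher without wild-type 2 (0.35, adjusted p = 0.0159), and Slc24a4 was called lower without knockout 2 (-0.47, adjusted p = 0.0197) or after centring (-0.39, adjusted p = 0.0477). All 4 potassium-dependent exchangers, and also Slc8a2 and Slc8a3, were dimmer than the median gene.

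Several genes were read by more than 1 probe set. Of the 44 genes, 26 had several probe sets, and in 7 of these, Slc4a11, Slc9a3, Slc9a3r1, Slc9a3r2, Slc24a2, Slc26a2 and Slc26a8, all probe sets were called in 1 direction when all probe sets of the array were tested. Slc4a4 had 4 probe sets called lower, with log2 fold changes of -1.23 to -0.98, and a dim one that was not called. In 2 genes probe sets were called in opposite directions. Slc9a8 had 3 called lower (-1.92, -1.58 and -0.28) and 1 dim one called higher (0.84). Slc20a1 had 2 called higher (1.55 and 2.14) and a dim one called lower (-0.28). Slc12a9 also differed: its brightest probe set was not called (-0.28) and a dim one was called higher (0.87). The mean of both gave 0.29 (adjusted p = 0.0152), the opposite sign. Slc12a5 had the reverse pattern, with the brightest probe set not called (0.24) and the dim one called lower (-0.35).

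**Figure D3:**
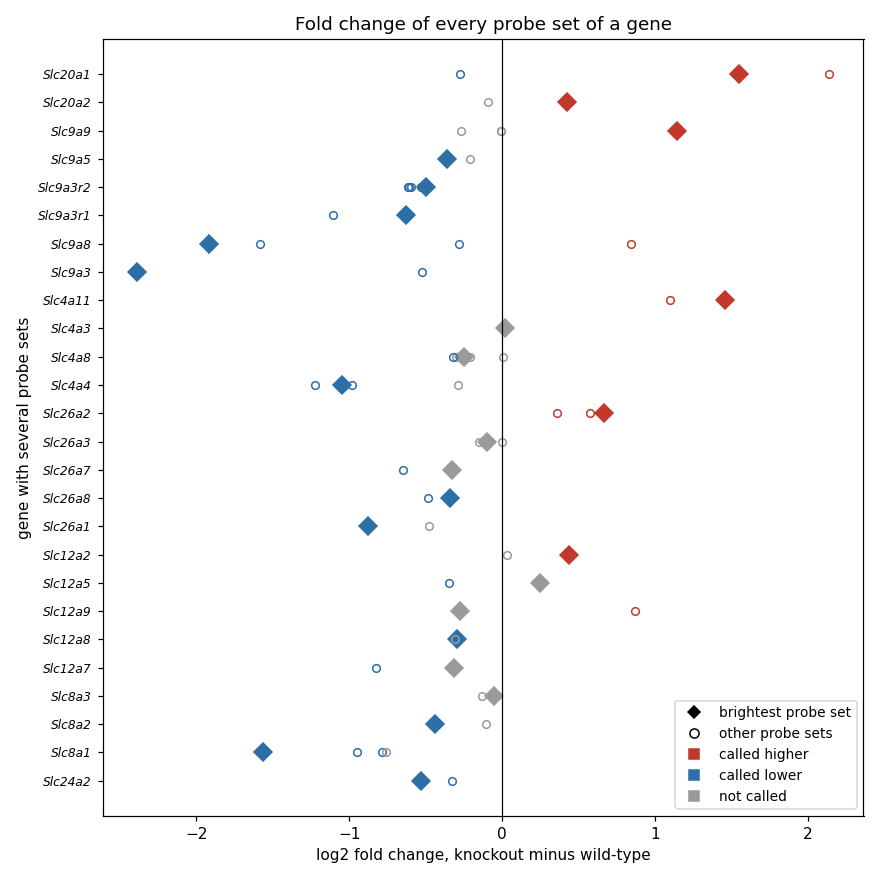
Log2 fold change, knockout minus wild-type (horizontal axis), of every probe set of the 26 genes with several; filled diamonds are the brightest probe set, used as the value of the gene, open circles the others, and colours give the call over all probe sets (red higher in the knockout, blue lower, grey not called). Slc20a1 and Slc9a8 have probe sets called on both sides of 0.

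Of the genes that regulate these carriers or work beside them, more fell than rose. Of 47 measured genes in 4 lists, 25 were called lower and 5 higher, beside 27.7% lower and 21.6% higher of all genes. The lists were chosen with earlier results of these data known, so these counts describe the listed genes and are no test against all genes. Calb1 and Atp6v1b1 were also counted among the cell type markers. Of the 47, 2 were called higher without knockout 1 or knockout 2, and 3 without knockout 3 or wild-type 1 or after centring. Among 10 genes of phosphate regulation 6 fell and none rose. Kl, the co-receptor Klotho for the phosphate-lowering hormone FGF23, read 9.28, 9.10 and 9.72 in knockout samples, against 11.65, 11.33 and 12.08 in wild-type samples. It was 5.0-fold lower (log2 fold change -2.32, SE 0.22, adjusted p = 0.000172). Cyp27b1, which makes active vitamin D, had a log2 fold change of -1.95 (SE 0.43, adjusted p = 0.00797), with wild-type samples spread from 5.97 to 7.93. Pth1r, the parathyroid hormone receptor, fell 2.89-fold (log2 fold change -1.53, SE 0.12, adjusted p = 8.87e-05).

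Among 14 partners of bicarbonate and proton carriers, 9 were lower and 2 higher, beside 27.7% lower and 21.6% higher of all genes. The membrane-bound carbonic anhydrases Car4 and Car14, which speed bicarbonate uptake at the cell surface, fell 6.05-fold (log2 fold change -2.60, SE 0.25, adjusted p = 0.0002) and 5.71-fold (log2 fold change -2.51, SE 0.16, adjusted p = 4.35e-05). Cftr, the chloride channel that works beside anion exchangers in secretory epithelia, read 8.03, 7.83 and 7.94 in knockout samples, against 6.81, 6.02 and 5.45 in wild-type samples. It rose 3.57-fold (log2 fold change 1.84, SE 0.30, adjusted p = 0.00213), without overlap.

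Of 13 genes in the kinase network that sets the activity of cation-chloride cotransporters, 5 were lower, 1 was higher and 7 were not called. Of all genes 27.7% were lower and 21.6% higher. Wnk4, a kinase of the distal nephron, had a log2 fold change of -0.69 (SE 0.16, adjusted p = 0.00948) and Cab39l, an adaptor of its downstream kinases, one of -0.50 (SE 0.08, adjusted p = 0.00153). Sgk1, the aldosterone-induced kinase, had -0.88 (adjusted p = 0.0465), with wild-type 3 at 9.94, within the knockout range of 9.80 to 9.95. This call ended when any 1 array other than wild-type 3 was left out (adjusted p up to 0.122), and without wild-type 3 the log2 fold change was -1.29. Ppp1ca, a phosphatase subunit, had 0.32 (adjusted p = 0.0217), a call that ended without knockout 1, knockout 2 or wild-type 2 (log2 fold change 0.26 to 0.37 over the 6 arrays left out in turn). Among 10 other calcium carriers and channels 5 were lower and 2 higher, beside the same shares of all genes. S100g, the calcium buffer calbindin-D9k, fell 2.93-fold (log2 fold change -1.55, SE 0.15, adjusted p = 0.000214), and Casr, the calcium-sensing receptor, had -0.92 (SE 0.14, adjusted p = 0.00177). Trpv6, an apical calcium channel, had 0.91 (SE 0.16, adjusted p = 0.00291). Proximal and distal tubule markers were lower in the same samples, with median log2 fold changes of -1.39 and -1.20.

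**Figure D4:**
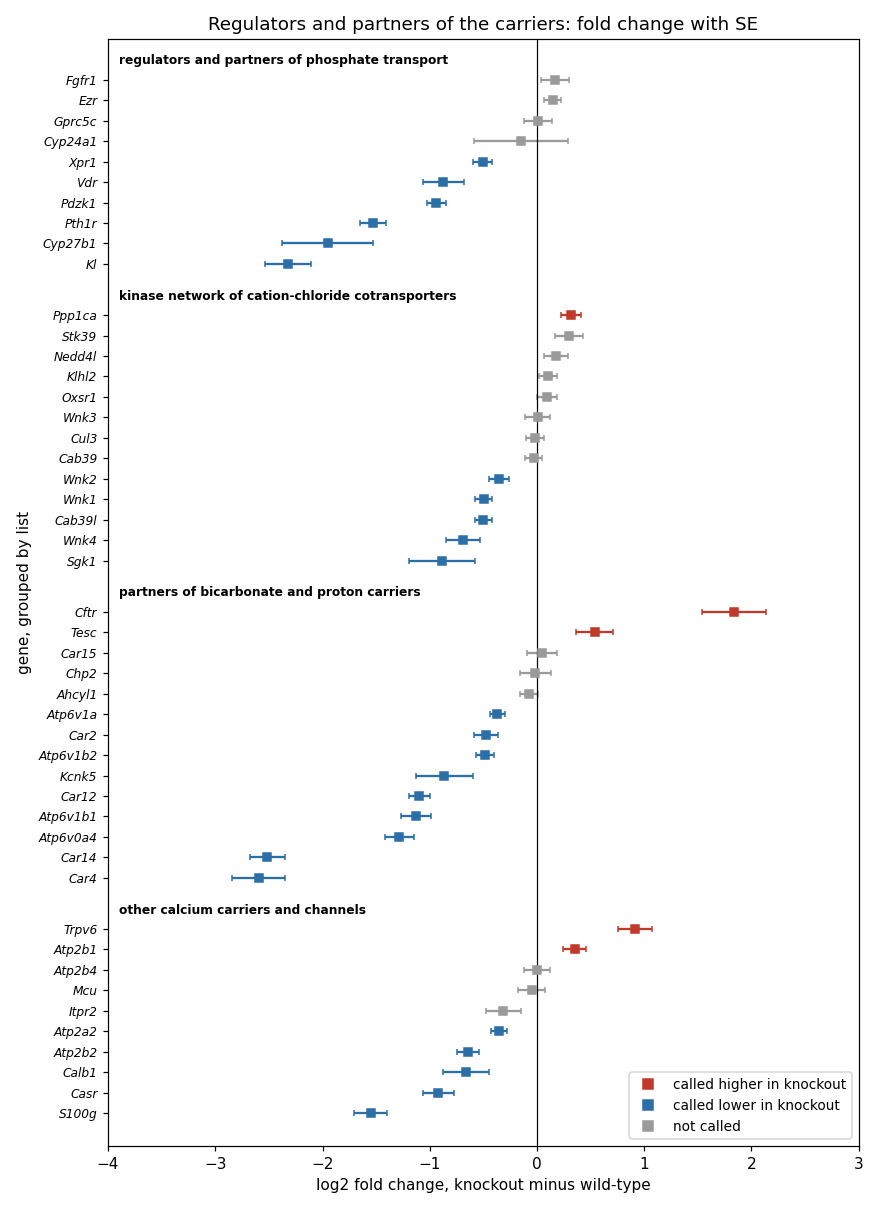
Log2 fold change, knockout minus wild-type (horizontal axis), with SE from the limma fit, of the 47 measured regulators and partners of the carriers in 4 lists; colours give the call (red higher in the knockout, blue lower, grey not called). Kl, Car4 and Car14 lie farthest to the left and Cftr farthest to the right.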

How the data were processed

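The authors deposited 1 table of log2 expression values for 45101 probe sets and 6 arrays, 1 for each sample. RMA is the tool named per the submitters' processing notes; the deposited values, from 2.90 to 14.8, fit a log2 scale. Its version and probe set definition: not given in the sources used here. The method corrects background, normalises arrays and summarises probes, gives no detection call and compresses folds of dim genes. Precision is limited by 3 arrays in each group.

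Probe sets were named through the supplied platform annotation, which can be old: 34945 had 1 gene symbol and 932 several, which were not used. Symbols of 34741 were brought up to date by Entrez identifier through RefSeq (GRCm38.p6). Each of 18193 genes was represented by its brightest probe set over the 6 arrays, with no filter. All genes entered a linear model in limma 3.58.1 under R 4.3.3 (lmFit, then eBayes; two-sided), with Benjamini-Hochberg adjustment over all genes and a threshold of 0.05, without covariates. Fold changes are knockout minus wild-type. The fit was tested on simulated data with independent noise and few changed genes, which does not measure false calls in these data. Array values are given for genes called with at least a 2-fold change and for a list of well-studied carriers, and from each list of regulators mainly the 3 called genes with the largest change. The members and lists were chosen with earlier results of these data known. Alternatives are given in the closing section. Tables and plots were made with Python 3.11.15, pandas 2.3.3 and matplotlib 3.10.9.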

Additional observations from a re-analysis of the deposited data

How the results depend on the processing

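No called gene of the 44 changed direction under the alternatives run; Slc12a9, not called, was called higher (0.29) with averaged probe sets but lower (-0.41 to -0.35) with centring, quantile normalization or without wild-type 2, and the uncalled Slc12a5, Slc24a1, Slc26a3, Slc4a1ap, Slc4a3 and Slc8a3 changed sign without a call. Of the 44 genes, 10 higher and 19 lower became 8 to 10 higher and 16 to 24 lower under averaged probe sets, a trended robust prior, median centring, quantile normalization, array weights, a replicate block, all probe sets or a threshold of 0.01 (15 lower). With brighter genes alone (mean at the median or above) 7 were higher and 10 lower, since only 20 of the 44 were tested. Leaving out 1 array gave 9 to 11 higher and 15 to 20 lower. Centring raised the lower share of calls over all genes to 67.0%, against 56.2%, and that of these genes to 70.6%, against 65.5%. The median log2 fold change of -0.28 was -0.41 in the brighter genes (all such genes 0.05, with 44.2% of calls lower), -0.35 after centring (all genes -0.19, against -0.11) and -0.31 to -0.22 with 1 array left out. The 5 regulators and partners called higher became 3 in the brighter genes, with centring and with the replicate block, 2 at a threshold of 0.01, and 2 to 5 with 1 array left out. Same-numbered samples did not deviate together (correlations -0.13 to -0.10), so the numbers are not taken as pairs; with the replicate block 10 genes were higher and 16 lower. For dim genes, signal near background limits the size of a fold. The lower quartile was 4.62 to 4.65 on knockout arrays and 4.72 to 4.77 on wild-type arrays, so dim probe sets as a whole read lower in the knockout. Whether this offset has a part in the small falls of dim genes was not tested.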
